A study of Mus musculus with 2 samples.

Results

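Microtubules are polymers of alpha- and beta-tubulin dimers that fill the processes of neurons, and the 47 genes described here encode the tubulins themselves and the proteins that sequester, bundle, anchor, sever or move along them. The genes were taken by symbol from a list of tubulins, stathmins and microtubule-associated proteins, and all 47 were found among the 43346 genes listed in each library. RNA above 200 nt in length, taken from the forebrain of B6NCrl mouse embryos at 16.5 days of gestation, was sequenced as total RNA from 10 ng of starting material with ERCC spike-ins. There is 1 group with 2 biological replicates and no genetic change or treatment; each replicate is a pool of male and female embryos, called pool 1 and pool 2 here after its replicate number. Pool 2 came from 41 embryos. The number of embryos in pool 1 is not given in the sources used here, and neither library is from a single animal.

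Alpha- and beta-tubulin end in acidic, glutamate-rich tails that face outward from the microtubule and carry the modifications read by motors and associated proteins. Stathmins bind free tubulin dimers and favour shrinkage, whereas structural microtubule-associated proteins (MAPs) such as tau, MAP2 and MAP1B bind along the lattice. In the embryonic forebrain, where newborn neurons migrate and extend axons, doublecortin and the LIS1-NDEL1 dynein regulators are best known from cortical malformations in humans and mice.

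Tubulin isotypes are known for their differing tails, so the last codons are shown for the isotypes that made up most of the beta-tubulin message and for Tuba4a, a minor alpha-tubulin. The lines give the last 20 codons and the stop codon of the coding strand, 63 bases each, with glutamate codons in capitals, from GENCODE M21 transcripts (GRCm38).
Tuba4a (chr1:75215622-75215684, minus strand): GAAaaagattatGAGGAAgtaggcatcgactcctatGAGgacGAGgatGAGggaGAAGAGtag
Tubb2a (chr13:34074468-34074530, minus strand): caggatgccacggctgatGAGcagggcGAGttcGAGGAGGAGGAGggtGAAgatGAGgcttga
Tubb2b (chr13:34127471-34127533, minus strand): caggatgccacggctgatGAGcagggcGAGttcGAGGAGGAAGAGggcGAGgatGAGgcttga
Tubb3 (chr8:123421620-123421682, plus strand): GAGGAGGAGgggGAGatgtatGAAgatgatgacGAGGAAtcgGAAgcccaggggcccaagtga
Tubb5 (chr17:35834982-35835044, minus strand): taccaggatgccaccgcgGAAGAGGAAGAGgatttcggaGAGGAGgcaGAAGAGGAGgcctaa
Tubb2a and Tubb2b differed at 3 of these 63 bases. Tuba4a ended in a glutamate codon and so encodes no terminal tyrosine, the residue that most alpha-tubulins lose and regain in the cell, and Tubb3 ended in a lysine codon where Tubb2a, Tubb2b and Tubb5 ended in alanine. Over the whole coding region, Tuba1a matched Tuba1b at 98.3% of aligned bases and Tubb2a matched Tubb2b at 96.5%. Tubb3 matched the other beta-tubulins at 81.4% to 85.9%.

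The stathmins differ at the other end of the protein, where 3 of the 4 carry an extension that Stmn1 lacks. The lines give the first 90 coding bases, with cysteine codons in capitals; in Stmn2 such cysteines are known to be palmitoylated and to anchor the protein to membranes. Each stretch is spliced from exons inside the interval given (GENCODE M21, GRCm38).
Stmn1 (chr4:134470163-134470743, plus strand): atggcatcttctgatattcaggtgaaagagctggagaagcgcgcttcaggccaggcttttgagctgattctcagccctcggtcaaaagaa
Stmn2 (chr3:8509612-8541911, plus strand): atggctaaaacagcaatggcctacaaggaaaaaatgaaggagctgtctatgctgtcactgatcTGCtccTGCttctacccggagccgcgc
Stmn3 (chr2:181309172-181314212, minus strand): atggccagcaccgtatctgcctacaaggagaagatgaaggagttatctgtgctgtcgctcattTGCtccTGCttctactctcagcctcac
Stmn4 (chr14:66354433-66355662, plus strand): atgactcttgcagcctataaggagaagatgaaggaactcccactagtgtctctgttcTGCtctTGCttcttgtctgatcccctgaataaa
Stmn2, Stmn3 and Stmn4 each held 2 cysteine codons here, at codons 22 and 24 in Stmn2 and Stmn3 and at codons 20 and 22 in Stmn4. Stmn1 held 0.

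Levels are given as TPM, a share of all transcripts, which divide by transcript length and so can be compared between genes. Errors are the SD over the 2 libraries. As a group, the microtubule genes lay high in the transcriptome. They took 4.50% of the nuclear protein-coding TPM in pool 1 and 4.35% in pool 2, of which the 12 tubulin genes alone took 2.88% and 2.76%. The median member stood at 85.4 TPM, against 5.04 TPM for all 21461 nuclear protein-coding genes. Of the 47 genes, 46 reached 1 TPM in both libraries, 44 reached 10 TPM, 20 reached 100 TPM and 6 reached 1000 TPM. Over all nuclear protein-coding genes the corresponding shares were 60.7%, 40.8%, 7.69% and 0.261%. The 3 genes that missed 10 TPM in at least 1 library were Tuba8, Map7 and Map1a. By mean TPM, 2 members stood among the 20 highest nuclear protein-coding genes and 9 among the 100 highest.

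**Figure D1:**
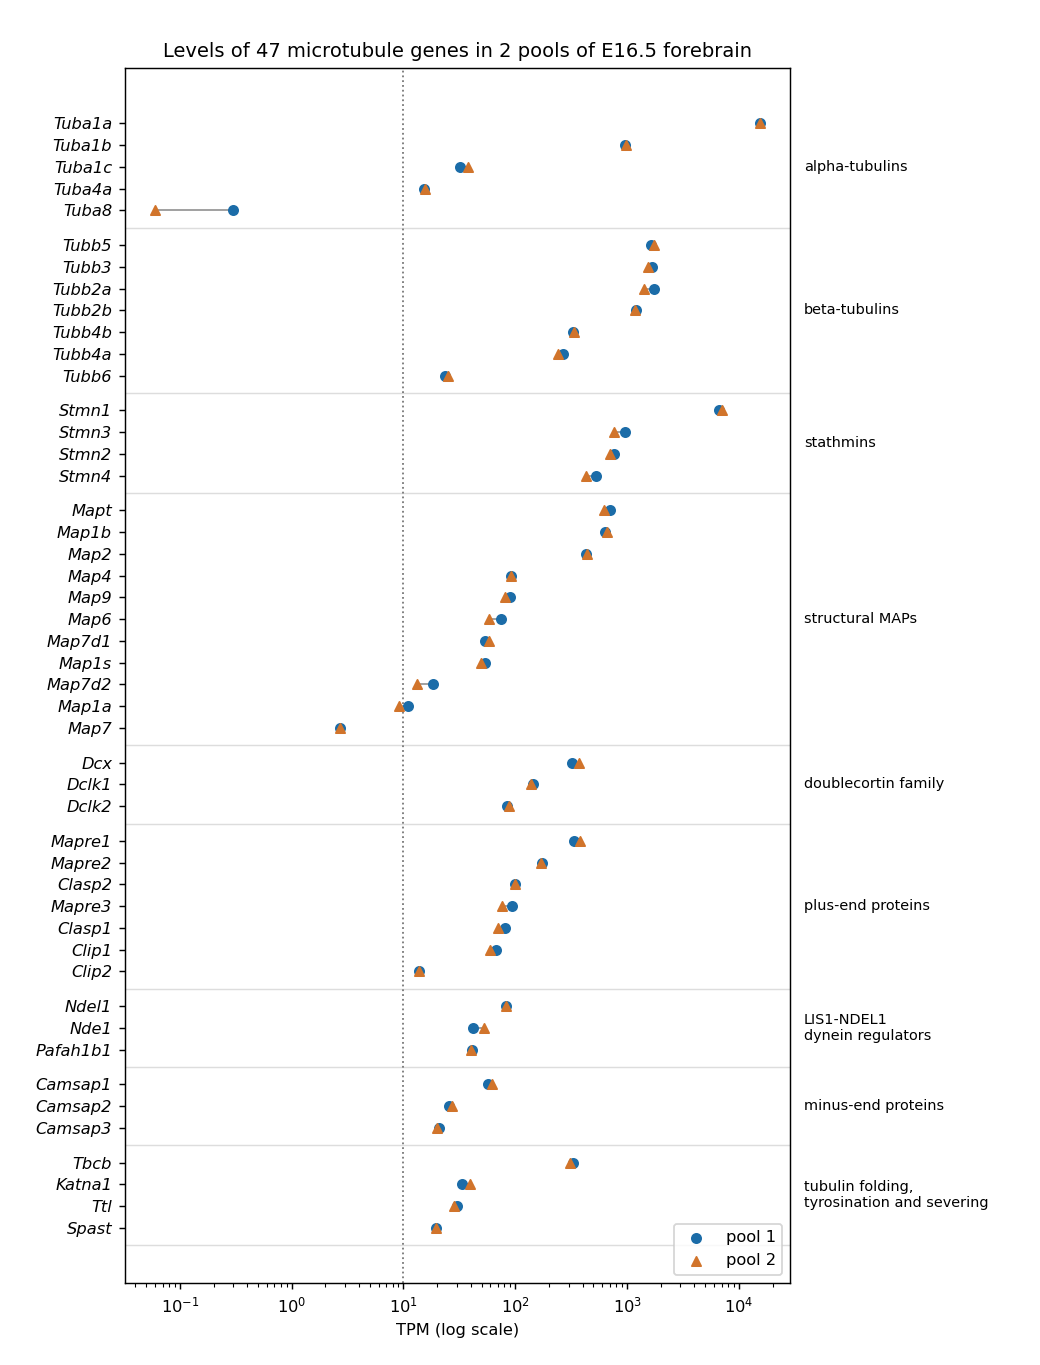
TPM of the 47 genes on a log axis, grouped by role and ordered by mean within each group, with pool 1 as a circle and pool 2 as a triangle; the dotted line marks 10 TPM. Tuba1a and Stmn1 stand far to the right, the symbols of a gene lie close together, and Tuba8 sits below 1 TPM in both libraries.

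Gene totals were 31211128 expected counts in pool 1 and 26957198 in pool 2, which limits precision for the lowest members only. All 12 pan-neuronal markers and 9 of 11 radial glia markers reached 10 TPM in both libraries, beside the tissue label of forebrain. Blood was present as well: the 7 erythroid markers summed to 10593 TPM in pool 1 and 13409 TPM in pool 2. In bulk tissue, fewer cells of a type and less RNA per cell cannot be told apart.

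Among the alpha-tubulins, 1 gene supplied nearly all of the message. Tuba1a, the alpha-tubulin of newborn neurons and a cause of lissencephaly in humans when mutated, had 15483 TPM in pool 1 and 15356 TPM in pool 2. This was the highest level of any nuclear protein-coding gene. Tuba1b, a broadly used alpha-tubulin, had 953 TPM in pool 1 and 976 TPM in pool 2, and Tuba1c had 32.1 and 37.7 TPM. Tuba1a exceeded Tuba1b by 4.00 ± 0.03 on the log2 scale of TPM in spite of their near-identical coding regions. Tuba4a, whose tail lacks the encoded tyrosine, had 15.4 TPM in pool 1 and 15.6 TPM in pool 2. Tuba1a exceeded it by 9.96 ± 0.02 on the log2 scale. Tuba8 was nearly absent at 0.30 TPM in pool 1 and 0.060 TPM in pool 2, which rest on 12 and 2 counts. Tuba1a thus made up 93.9% of the alpha-tubulin TPM in pool 1 and 93.7% in pool 2, and Tuba1b 5.78% and 5.96%.

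The beta-tubulin message was divided among several genes. Tubb5, a beta-tubulin of dividing and differentiating cells alike, had 1646 TPM in pool 1 and 1732 TPM in pool 2. Tubb3, the beta-tubulin used as a neuronal marker, had 1668 TPM in pool 1 and 1550 TPM in pool 2. Tubb2a had 1752 TPM in pool 1 and 1422 TPM in pool 2. The order of these 3 genes changed between the libraries, so their levels could not be ranked. Tubb5 took 25.4% ± 1.98 of the beta-tubulin TPM, Tubb3 took 24.1% ± 0.237 and Tubb2a took 23.7% ± 2.49. Tubb2b, which is mutated in human polymicrogyria, followed at 1190 TPM in pool 1 and 1169 TPM in pool 2, or 17.7% ± 0.526 of the family.

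The remaining beta-tubulins were lower. Tubb4b, a widely used isotype also found in cilia, averaged 331 ± 4.24 TPM, and Tubb4a, an isotype of brain, averaged 253 ± 16.1 TPM. Tubb4b exceeded Tubb4a by 0.39 ± 0.11 on the log2 scale, and Tubb5 exceeded Tubb4a by 2.74 ± 0.14. Tubb6, which is low in neurons, averaged 24.2 ± 1.27 TPM, and Tubb3 exceeded it by 6.06 ± 0.15 on the log2 scale. Tubb2b and Tubb2a were not set apart, with a log2 ratio of Tubb2b over Tubb2a of -0.56 in pool 1 and -0.28 in pool 2. A pair was called apart where the log2 ratio had 1 sign in both libraries and its mean was larger than 3 SD, and 21 of the 24 pairs compared met this rule.

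Summed over the listed genes, alpha-tubulins reached 16483 TPM in pool 1 and 16386 TPM in pool 2, against 6872 and 6474 TPM for beta-tubulins. The ratio of alpha to beta was 2.40 in pool 1 and 2.53 in pool 2, although the proteins combine in equal numbers. Without Tuba1a the ratio was 0.146 in pool 1 and 0.159 in pool 2. The excess of alpha over beta message therefore rested on a single gene.

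**Figure D2:**
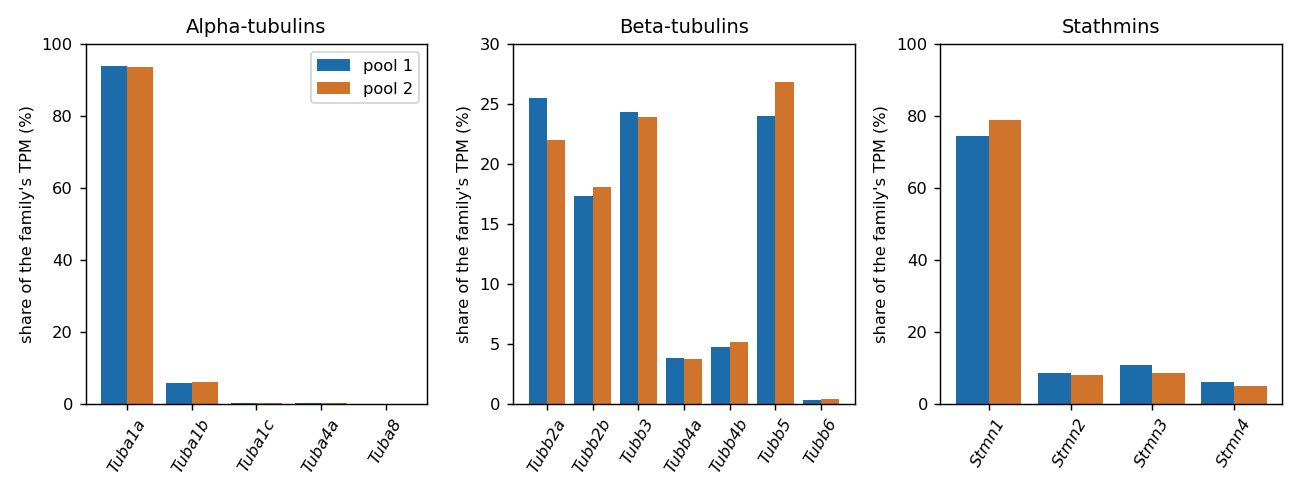
Share of each family's TPM held by each alpha-tubulin, beta-tubulin and stathmin gene, with pool 1 left of pool 2; the beta-tubulin axis ends at 30%. Tuba1a fills over 93% of the alpha-tubulin TPM and Stmn1 over 74% of the stathmin TPM, while 4 beta-tubulins hold 17% to 27% each.

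How reads were divided among such similar genes bears on these values. Transcript lengths exceeded the deposited effective lengths by 99 bases, as for fragments of 100 bases, so stretches of 100 bases were compared between transcripts. Of the 47 leading complete coding transcripts, 30 shared no such stretch with a transcript of another gene. Only this 1 transcript of each member was searched. Tuba1a shared 65.8% of its stretches, Tuba1b 73.0%, Tuba1c 53.4%, Tubb2a 36.9% and Tubb2b 27.7%, with each other or with predicted genes and pseudogenes. Tubb3, Tubb4a, Tubb5 and Tubb6 shared 0%, so their levels did not depend on such a division. The posterior SD that the authors deposited for each count was 106 of 447467 counts for Tuba1a in pool 1 and 107 of 28845 for Tuba1b. It reached 3.13% of the count for Tuba1c in pool 1 and 3.22% in pool 2. For Map4, which is among the 30 by its 99-codon transcript Map4-206, it was 1.21% and 1.12%. For Tuba4a, 46.7% of stretches were shared with Stk16, which overlaps it on the opposite strand and had 125 TPM in pool 1 and 109 TPM in pool 2. Whether counting used strand is not given in the sources used here, so reads of Tuba4a and Stk16 from the overlap cannot be told apart.

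The stathmins followed a pattern like that of the alpha-tubulins, with 1 leading gene. Stmn1, the cytosolic stathmin of progenitors and young neurons, had 6578 TPM in pool 1 and 6993 TPM in pool 2, second only to Tuba1a among nuclear protein-coding genes. Stmn3 had 961 TPM in pool 1 and 762 TPM in pool 2, and Stmn2, a growth-cone protein, had 760 and 698 TPM. Stmn4 was the lowest at 531 TPM in pool 1 and 426 TPM in pool 2. Stmn1 exceeded Stmn2 by 3.22 ± 0.15 on the log2 scale, and Stmn3 exceeded Stmn4 by 0.85 ± 0.01. Stmn2 over Stmn3 gave -0.23 ± 0.15, which did not pass the rule. Stmn1, the form without these cysteines, took 74.5% of stathmin TPM in pool 1 and 78.8% in pool 2. Of the Stmn1 stretches, 26.1% were shared with Gm11223, a processed pseudogene that was given 431 counts in pool 1 and 592 in pool 2, against 118221 and 105420 for Stmn1.

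Among the structural MAPs, tau, MAP1B and MAP2 stood well above the others. Mapt, which encodes the axonal protein tau, had 706 TPM in pool 1 and 627 TPM in pool 2. Map1b, a MAP of growing axons, had 631 TPM in pool 1 and 656 TPM in pool 2, so its order relative to Mapt changed between libraries. Map2, the dendritic MAP, had 426 TPM in pool 1 and 439 TPM in pool 2. Map2 lay below Mapt by a log2 ratio of -0.62 ± 0.15 and Map1b exceeded Map2 by 0.57 ± 0.01. Both differences passed the rule for pairs.

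The later partner of Map1b, Map1a, whose protein rises in the mature brain, had 10.9 TPM in pool 1 and 9.07 TPM in pool 2. Map1b exceeded it by 6.01 ± 0.23 on the log2 scale, a 64.66-fold ratio. With protein-coding transcripts only, Map1b exceeded Map1a by 6.88 ± 0.04, a 117.53-fold ratio. Map1s, the short member of that family, averaged 51.1 ± 2.71 TPM. Map4, best known from non-neuronal cells, averaged 91.8 ± 0.0707 TPM and lay below Mapt by a log2 ratio of -2.86 ± 0.12. Map9, a spindle-associated protein, averaged 85.1 ± 6.47 TPM, and Map6, which stabilises microtubules against cold, averaged 66.2 ± 11.8 TPM. The Map7 family, which recruits kinesin, ranged widely. Map7d1 averaged 56.2 ± 3.12 TPM, Map7d2 averaged 15.7 ± 3.66 TPM and Map7 averaged 2.71 ± 0.00707 TPM. Map7d1 exceeded Map7 by 4.38 ± 0.08 on the log2 scale.

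Mapt and Map2 have alternative exons that are used differently in juvenile and adult brain, and the transcript tables give each transcript's percent of its gene's TPM. The sequences below are alternative exons that the shares given here turn on, all wholly coding: a pair that adds the amino-terminal inserts of tau, a 54-base exon of Mapt, and a 93-base exon that adds a microtubule-binding repeat to MAP2. They are in lower case throughout, from GENCODE M21 (GRCm38, plus strand).
Mapt first 87-base exon (chr11:104287123-104287209): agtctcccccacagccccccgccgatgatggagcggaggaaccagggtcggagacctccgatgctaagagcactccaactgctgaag
Mapt second 87-base exon (chr11:104289908-104289994): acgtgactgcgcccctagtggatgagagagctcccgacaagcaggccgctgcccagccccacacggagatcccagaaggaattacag
Mapt 54-base exon (chr11:104307881-104307934): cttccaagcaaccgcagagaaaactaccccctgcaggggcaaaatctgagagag
Map2 93-base exon (chr1:66431527-66431619): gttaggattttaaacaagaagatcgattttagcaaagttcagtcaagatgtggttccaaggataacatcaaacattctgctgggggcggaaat

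Most Mapt message lacked both amino-terminal inserts. Transcripts with a coding region of at least 1000 bases and neither 87-base exon took 82.8% of Mapt TPM in pool 1 and 88.1% in pool 2. Those with both 87-base exons took 12.2% in pool 1 and 8.16% in pool 2. The 54-base exon was carried by Mapt-205 alone, which led by TPM at 44.6% in pool 1 and 50.3% in pool 2. Mapt-204, which lacks that exon, followed at 38.2% in pool 1 and 37.8% in pool 2. By counts the order was the reverse. Mapt-205, listed at 1527 bases, had 8436 counts in pool 1 and 7106 in pool 2. Mapt-204, listed at 5253 bases, had 26104 and 19237. The share with the exon therefore depends on these listed lengths. Other alternative exons of Mapt are not reported here, so these shares do not place the message as juvenile or adult.

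For Map2, the short juvenile type without the 3741-base exon prevailed. Transcripts complete through the repeats and lacking that exon took 49.7% of Map2 TPM in pool 1 and 55.0% in pool 2. Map2-204, the only such transcript with the exon, took 10.9% in pool 1 and 11.0% in pool 2. Transcripts with the 93-base exon took 0.95% in pool 1 and 1.53% in pool 2. The rest, 39.4% in pool 1 and 34.0% in pool 2, lay on 17 shorter or partial transcripts. The largest of these was Map2-218, of 546 bases, at 18.5% in pool 1 and 17.6% in pool 2.

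Map4 split almost evenly over 3 of its 4 transcripts, and its leading transcript changed between libraries by a narrow margin in pool 2. Map4-206, with 99 codons, took 34.9% in pool 1 and 31.8% in pool 2. Map4-205, with 1124 codons, took 29.4% and 31.9%, and Map4-204, with 933 codons, took 31.1% and 28.0%. Map4-201 took 4.54% in pool 1 and 8.37% in pool 2. By posterior means the leader did not change. Map4-206 then took 35.0% in pool 1 and 31.8% in pool 2, against 29.7% and 31.5% for Map4-205.

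Doublecortin, which bundles microtubules in migrating neurons and causes a double cortex in humans when mutated, led its family. Dcx had 320 TPM in pool 1 and 370 TPM in pool 2. Dclk1, which joins a doublecortin domain to a kinase, had 144 TPM in pool 1 and 139 TPM in pool 2, and Dclk2, built likewise, had 84.5 and 88.2 TPM. Dcx exceeded Dclk1 by 1.28 ± 0.18 on the log2 scale, and Dclk1 exceeded Dclk2 by 0.71 ± 0.08. The order of the 3 genes was the same in both libraries.

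Dclk1 message was divided between a full-length form and a form without the kinase part. Dclk1-201, which encodes both parts in 756 codons, took 51.9% in pool 1 and 50.4% in pool 2. Dclk1-203, of 363 codons and without the kinase exons, took 38.0% in pool 1 and 40.2% in pool 2. Dclk1-202, of 422 codons and holding the kinase part, took 10.1% and 9.40%. These shares moved by under 3 percentage points between the pools.

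Counting all transcripts, the plus-end proteins were led by Mapre1. Mapre1, an end-binding protein that tracks growing plus ends, had 338 TPM in pool 1 and 380 TPM in pool 2. Mapre2 had 175 TPM in pool 1 and 171 TPM in pool 2, and Mapre3, the neuronal member, had 94.0 and 76.8 TPM. Mapre1 exceeded Mapre2 by 1.05 ± 0.14 and Mapre3 by 2.08 ± 0.32 on the log2 scale. The order of Mapre1 and Mapre2 depended on which transcripts were counted. Of Mapre1 TPM, 64.3% in pool 1 and 66.3% in pool 2 lay on a 483-base transcript typed as a processed transcript. That share rests on 1568 of 17921 counts in pool 1 and 1524 of 16116 in pool 2, divided by a short length. The coding Mapre1-201, of 7336 bases, had 16350 and 14592 counts. Counting only transcripts typed protein-coding, Mapre1 had 120 TPM in pool 1 and 128 TPM in pool 2, and Mapre1 over Mapre2 turned to -0.43 ± 0.05. The same could not be computed for Mapre3, whose leading transcripts were not matched in GENCODE M21. Its distance from Mapre1 is therefore known for all transcripts only.

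Clasp2 and Clasp1, which promote rescue of shrinking ends, were close in level when all transcripts were counted. Clasp2 had 99.5 TPM in pool 1 and 100 TPM in pool 2, and Clasp1 had 80.5 and 70.5 TPM. Clasp2 over Clasp1 gave 0.41 ± 0.14 and did not pass the rule. With protein-coding transcripts only it gave 1.12 ± 0.08, which passed. Of Clasp1 TPM, 25.0% in pool 1 and 26.7% in pool 2 lay on Clasp1-215, a retained intron transcript. Clip1, which links plus ends to cargo and dynactin, averaged 62.9 ± 5.31 TPM, and Clip2, its brain relative, averaged 13.8 ± 0.0919 TPM. Clip2 lay below Clip1 by a log2 ratio of -2.19 ± 0.11.

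The leading Clasp1 transcript was Clasp1-204 at 27.9% in pool 1, against 25.0% in pool 2, where Clasp1-215 led. Clasp2-201 led in both libraries, at 80.3% in pool 1 and 68.1% in pool 2. Clasp2-203 took 17.0% in pool 1 and 30.1% in pool 2, and it differs from Clasp2-201 by 1 codon in length (1287 against 1286 codons). Its posterior SD was 380 of 1758 counts in pool 1 and 335 of 2620 in pool 2. Clasp2-202 took 2.63% and 1.89%.

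The LIS1-NDEL1 group regulates cytoplasmic dynein in nuclear and neuronal migration. Ndel1 had 83.4 TPM in pool 1 and 82.1 TPM in pool 2. Nde1, its paralogue used in dividing progenitors, had 42.1 TPM in pool 1 and 52.0 TPM in pool 2. Pafah1b1, which encodes LIS1 and is deleted in human lissencephaly, had 41.0 TPM in pool 1 and 39.8 TPM in pool 2. Ndel1 exceeded Nde1 by 0.82 ± 0.23 on the log2 scale, and the distance was wider in pool 1 (0.99) than in pool 2 (0.66).

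The CAMSAP proteins, which cap and stabilise minus ends, were of modest level. Camsap1 had 57.2 TPM in pool 1 and 61.9 TPM in pool 2. Camsap2 had 25.7 TPM in pool 1 and 27.2 TPM in pool 2, and Camsap3 had 20.8 and 19.9 TPM. Camsap1 exceeded Camsap3 by 1.55 ± 0.13 and Camsap2 exceeded Camsap3 by 0.38 ± 0.10 on the log2 scale. With protein-coding transcripts only, Camsap1 over Camsap3 gave 0.84 ± 0.03, and Camsap2 over Camsap3 gave 0.33 ± 0.12 and did not pass the rule. The order of the 3 genes held in both libraries. In pool 2 the leading Camsap1 transcript was Camsap1-209, a target of nonsense-mediated decay by its annotation, at 28.7% in pool 1 and 32.3% in pool 2.

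Of the genes for folding, tyrosination and severing, Tbcb stood out by level. Tbcb, a chaperone of alpha-tubulin, had 330 TPM in pool 1 and 306 TPM in pool 2. Of this, 53.0% in pool 1 and 52.3% in pool 2 lay on a 502-base retained intron transcript, which left 152 and 145 TPM on coding transcripts. Polr2i, on the opposite strand, shares 17.2% of the 100-base stretches of the coding Tbcb transcript. Katna1, the catalytic katanin subunit, had 33.1 TPM in pool 1 and 39.0 TPM in pool 2, and Ttl, the ligase that restores the terminal tyrosine of alpha-tubulin, had 29.8 and 28.4 TPM. Spast, which encodes the severing enzyme spastin, averaged 19.6 TPM and lay below Katna1 by a log2 ratio of -0.88 ± 0.17.

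**Figure D3:**
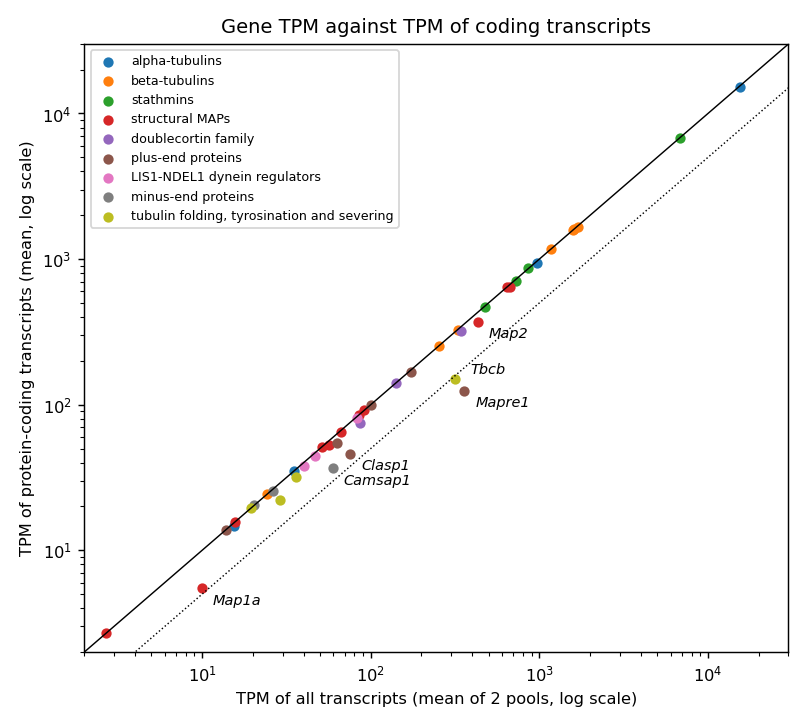
Mean TPM of transcripts typed protein-coding against mean TPM of all transcripts, both on log axes, for members at 1 TPM or more with at least 90% of TPM on transcripts found in GENCODE M21; the solid line is equality and the dotted line is 50%. Mapre1 and Tbcb lie below the dotted line and Map1a just above it, while most points lie on the solid line.

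The share of TPM on coding transcripts was compared with that of other genes. Of the 43 members compared, all with 10 TPM or more in each library, 2 had under 50% of their TPM on coding transcripts in both, a count near the 7.05% of 8628 protein-coding genes. The median coding share was 98.3% for members and 96.9% for those genes. Map1a, which missed the 10 TPM limit, had 42.7% in pool 1 and 28.1% in pool 2 on a 411-base processed transcript. That share rests on 27 and 13 counts. Map2, Clasp1, Clip1, Dclk2, Camsap1, Ttl and Katna1 also had coding shares below 90% in at least 1 library. The leading transcripts of Mapre3 were not matched in GENCODE M21, so it was left out of these counts.

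The leading transcript was compared between pools. Of 34 members at 10 TPM or more with at least 2 transcripts, 30 had the same leading transcript in both libraries. The 4 that differed were Map4, Clasp1, Clip2 and Camsap1, and over all 6833 genes compared 7.23% differed. A share moved by at least 10 percentage points in 5 of the 34 members, against 18.6% of all genes. Both counts are near the shares of all genes. Besides Clasp2, these were Clip2, Tuba4a, Map7d2 and Katna1.

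Among the moving shares, those of Katna1 lay on transcripts of nearly equal coding length, and that of Map7d2-205 rested on few counts. Why the shares moved was not tested for any of these genes. Clip2-202, which holds a 105-base exon that Clip2-201 lacks, took 51.6% in pool 1 and 41.0% in pool 2. Tuba4a-201 took 50.4% in pool 1 and 36.1% in pool 2, and Tuba4a-206 took 20.2% and 33.2%. The posterior SD of Tuba4a-201 was 46.9 of 290 counts in pool 1 and 42.4 of 176 in pool 2. For Tuba4a-206 it was 27.4 of 65 counts in pool 1 and 23.1 of 90 in pool 2. Map7d2-205, of 478 bases, took 4.18% in pool 1 and 16.7% in pool 2 on 5 and 13 counts. Katna1-201 took 77.1% in pool 1 and 53.1% in pool 2, and Katna1-202, which is 2 codons longer (493 against 491), took 8.67% and 34.6%. Its posterior SD was 251 counts against an estimate of 90 in pool 1, and 148 against 357 in pool 2. By posterior means, Katna1-201 took 53.8% in pool 1 and 40.1% in pool 2.

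**Figure D4:**
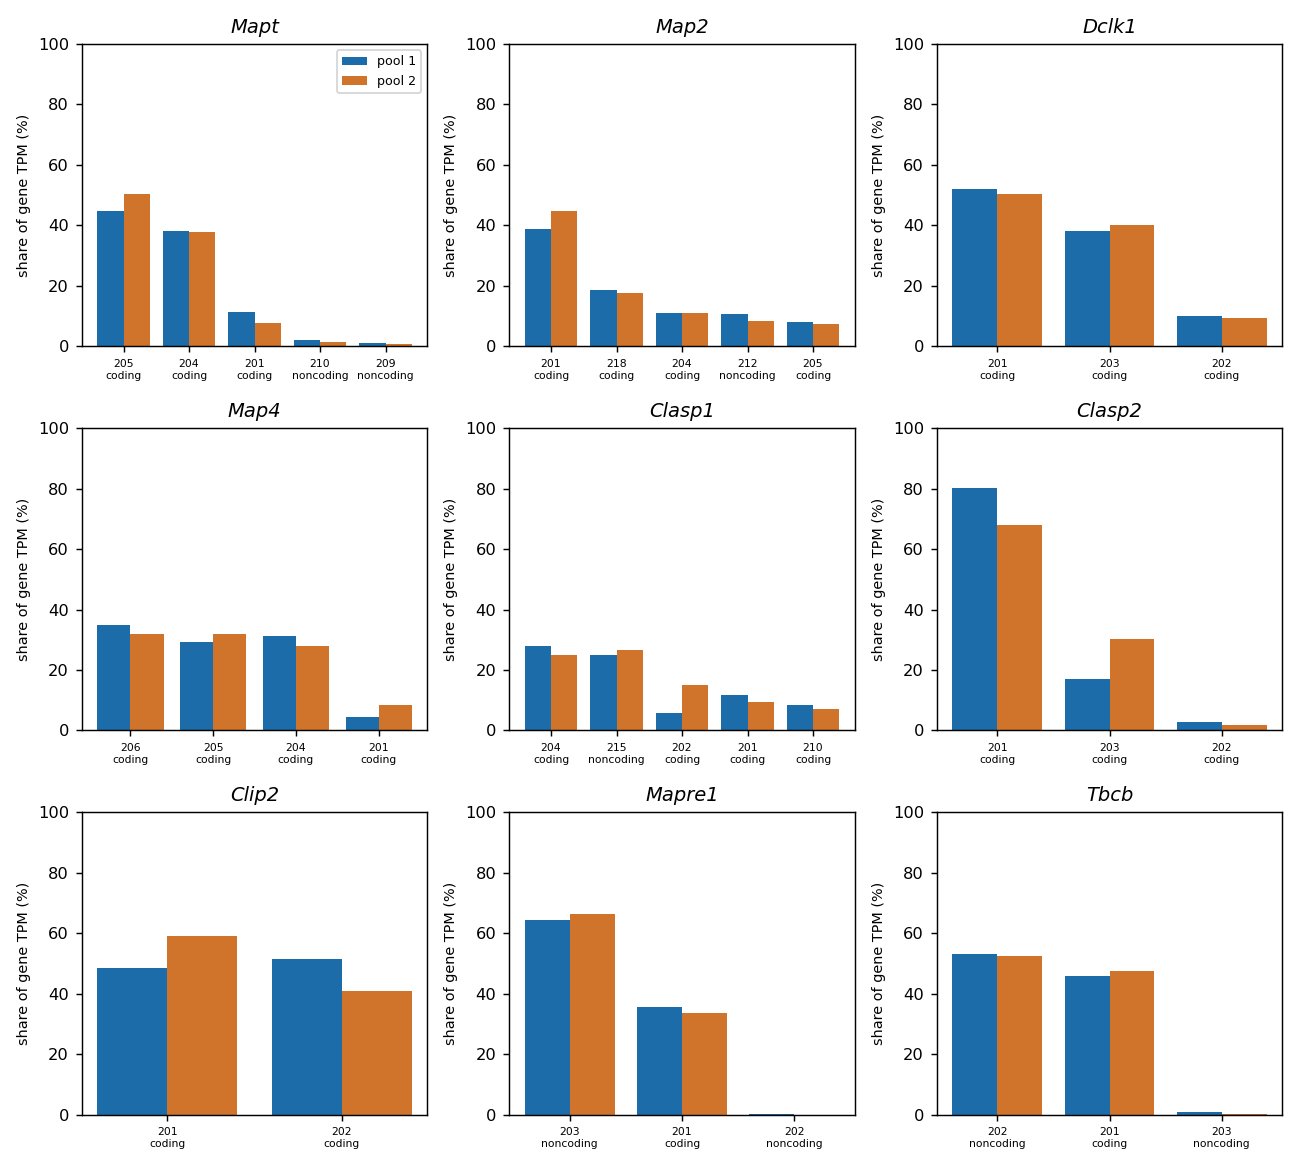
Percent of gene TPM on up to 5 leading transcripts of 9 genes, with pool 1 left of pool 2, named by the last digits of the transcript name and by whether GENCODE M21 types the transcript as protein-coding. Mapt, Map2 and Dclk1 keep their order in both libraries, and noncoding bars lead in Mapre1 and Tbcb. Clip2 exchanges its leader, from bars of near-equal height in pool 1.

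The 2 pools were compared by the log2 ratio of TMM-scaled expected counts, pool 1 over pool 2, with an exact Clopper-Pearson 95% interval for counting error. Of the 46 members averaging 50 counts or more, 0 differed by 2-fold or more with an interval that excluded equality, and over all 13929 genes tested 1.37% did (1.01% higher in pool 1 and 0.366% higher in pool 2). Such a count is near the background. Among the 6589 genes averaging at least 1000 counts 0.152% were called, against 0 of 41 members at that depth, and the median absolute log2 ratio was 0.08 for these members and 0.11 for these genes. With 1 library a side, no p-value that covers variation between pools can be given. At 1.5-fold or more, 1 member differed, being higher in pool 1, against 6.59% of all genes (4.69% higher in pool 1 and 1.90% higher in pool 2). The CV of TPM over the 2 libraries had a median of 5.23% over these members and was under 10% in 35 of them.

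That 1 member was Map7d2, with 923 counts in pool 1 and 517 in pool 2 and a log2 ratio of 0.60 (0.44 to 0.76). Next came Stmn3 at 0.35 (0.32 to 0.39) and Stmn4 at 0.35 (0.31 to 0.39). In the other direction, Nde1 had the lowest ratio at -0.31 (-0.41 to -0.21), then Katna1 at -0.23 (-0.36 to -0.10) and Tuba1c at -0.21 (-0.33 to -0.09). The members' median was 0.03, against -0.01 for all genes tested. Counting intervals lay wholly above 0 for 19 members, against 24.1% of all genes, and wholly below 0 for 10 members, against 26.5%. Such intervals are narrow for genes this abundant: Tuba1a, at 447467 and 373003 counts, had a ratio of 0.03 (0.02 to 0.03). The lean above 0 was also seen at matched depth. At a mean of at least 1000 counts, intervals lay wholly above 0 for 18 of 41 members, against 23.6% of genes. They lay wholly below 0 for 9 of these members, against 36.2% of genes. The cause of this lean was not tested.

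Within families the ratios lay on both sides of 0. Stmn2, Stmn3 and Stmn4 had ratios of 0.13 to 0.35, whereas Stmn1 had -0.07. Tubb2a had 0.32 and Tubb3 had 0.12, whereas Tubb5 had -0.06. Mapt had 0.19, Map6 had 0.34 and Mapre3 had 0.32, whereas Map1b had -0.04, Map2 had -0.08 and Dcx had -0.17. None of these reached 1.5-fold. All are relative to the bulk of genes: spike-in scaling shifts every ratio by -0.5537, which leaves 1 member above 0 and 45 below.

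Marker genes moved between the same libraries. Pan-neuronal markers summed to 3048 TPM in pool 1 and 2672 TPM in pool 2, with a median log2 ratio of 0.30 and 11 of 12 above 0. Cell cycle markers summed to 731 and 891 TPM, with a median of -0.26 and 12 of 12 below 0. Radial glia markers summed to 1940 and 2420 TPM, with a median of -0.27 and 10 of 10 tested below 0. On this scale, which carries the same spike-in shift, pan-neuronal markers were higher in pool 1 and cell cycle and radial glia markers were lower; their part in the members' ratios was not tested.

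Hypothalamic and meningeal fibroblast markers differed more. The 7 hypothalamic markers summed to 43.0 TPM in pool 1 and 12.5 TPM in pool 2, with 6 of 6 tested above 0 and a median of 2.17. Of these, Sim1, Otp, Crh, Trh and Avp passed 2-fold, with ratios from 1.25 (Trh) to 2.84 (Sim1). The 8 meningeal fibroblast markers summed to 197 and 457 TPM, with 7 of 7 tested below 0 and a median of -0.93, and Col1a1 (-1.89) and Col1a2 (-1.51) passed 2-fold. Erythroid, endothelial and microglia markers had medians of -0.34, -0.26 and -0.33. No marker on these 8 lists was at 0 counts in both libraries. With 1 library per pool, a difference between dissections and one between groups of embryos cannot be told apart.

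**Figure D5:**
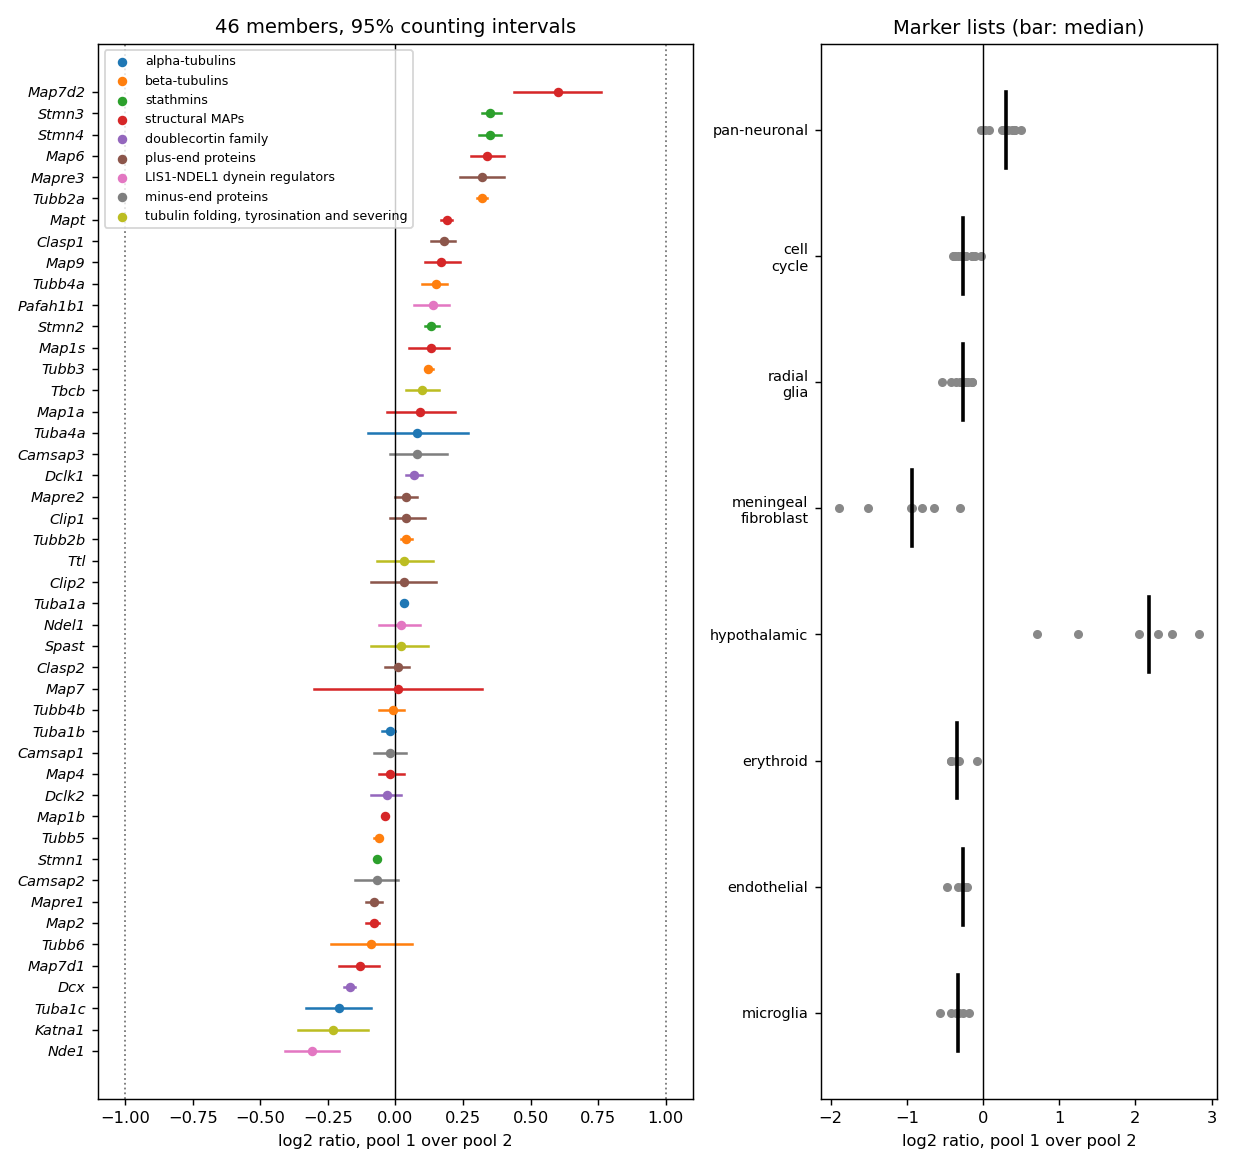
Left, log2 ratio of scaled counts, pool 1 over pool 2, for the 46 members tested, with 95% counting intervals, coloured by role; dotted lines mark 2-fold. Right, the same ratio for tested genes of 8 marker lists, with a bar at each median: hypothalamic markers lie far above 0 and meningeal markers below it, while all members lie within 2-fold.

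Other genes of the microtubule system, 87 in 7 lists, were compared between the pools in the same way. Of these, 79 had enough counts, 0 were called at 2-fold in either direction (1.37% of all genes were), and 49 lay above 0 and 30 below, with a median of 0.05. At 1.5-fold, 4 were higher in pool 1 and 0 in pool 2, against 4.69% and 1.90% of all genes. These were Tppp3, a tubulin polymerisation-promoting protein, at 0.95 (0.77 to 1.14), Fign at 0.76 (0.56 to 0.95), Dclk3 at 0.60 (0.37 to 0.84) and Map6d1 at 0.60 (0.27 to 0.94). The 4 other alpha- and beta-tubulins were at most 0.365 TPM on average, with Tubb1 the highest and Tuba3b at 0 counts in both libraries. A count of 0 allows up to 0.0799 TPM in pool 1 and 0.0952 TPM in pool 2 for a transcript of 2 kb. Gamma-, delta- and epsilon-tubulins ranged from Tubg1 at 77.2 ± 2.40 TPM, the nucleating gamma-tubulin, to Tube1 at 6.75 ± 0.00707 TPM.

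The other lists were led by genes of known roles in tubulin supply and transport. Among 6 folding cofactors, Tbca, a chaperone of beta-tubulin, averaged 223 ± 13.1 TPM and Tbcel 4.25 ± 0.368 TPM. Among 21 tubulin-modifying enzymes, Atat1, the alpha-tubulin acetyltransferase, averaged 383 ± 36.4 TPM and Ttll6 0.0800 ± 0.0141 TPM. Among 7 other severing genes, Katnbl1 averaged 39.7 ± 5.05 TPM and Fignl2 0.0300 ± 0.0283 TPM. Among 26 other MAPs and plus-end proteins, Map1lc3b, better known from autophagy, averaged 353 ± 23.3 TPM and Map7d3 0.125 ± 0.0212 TPM. All 19 dynein and dynactin genes reached 10 TPM in both libraries, from Dynll1, a dynein light chain, at 1166 ± 86.1 TPM to Bicd2, a dynein adaptor, at 25.6 ± 1.17 TPM.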

How the data were processed

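Total RNA-seq of 2 forebrain pools gave 1 gene table and 1 transcript table per library, mapped to mm10 with GENCODE M4 per the notes deposited with each sample; no aligner, counting program or strand setting is given in the sources used here. The authors deposited expected counts (estimated counts, not normalized), as maximum likelihood values and posterior means, per the file headers. The deposited TPM values are scaled over all features, spike-ins included, per the file headers; spike-ins took 5.93% of TPM in pool 1 and 4.10% in pool 2, which lowers all other TPM. The authors deposited FPKM, used only as an alternative, and each transcript's percent of its gene, per the file headers.

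Symbols, coordinates, transcript types and sequences came from GENCODE M21 (GRCm38), matched by identifier without version: 42462 genes matched, and 238 of the members' 243 transcripts. The expected counts, rounded to whole numbers, went into edgeR 4.0.16 (R 4.3.3), which gave TMM factors; DESeq2 1.42.0 size factors were an alternative. Ratios used a prior count of 0.5, a mean of at least 50 counts and a 2-fold limit; intervals cover counting error only, since PCR copies are not independent molecules. With 1 group of 2 replicates there is no test between groups, and the spread may be technical as well as biological. Some sequences are not reported here. Of the steps, the pool comparison was tested on simulated counts that held counting error only. Python 3.11.15, numpy 2.4.6, pandas 2.3.3, scipy 1.17.1, Biopython 1.88 and matplotlib 3.10.9 were used.

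The members, lists and pairs were chosen with earlier results of these data known. All members are named; values per library are given for the 3 highest of each role group, the 3 largest ratios in each direction, the transcripts of Mapt, Map2, Dclk1, Map4, Clasp1 and Clasp2 and shares that moved by 10 percentage points, and further values were chosen after they were seen. Of other lists, the highest, the lowest and each called gene are named. Alternatives covered posterior means, TPM over protein-coding genes, FPKM, scalings, count and TPM limits, the pseudocount and each replicate left out; TPM of protein-coding transcripts was added after seeing the data.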

Additional observations from a re-analysis of the deposited data

How the results depend on the processing

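Most values kept their size and direction. Summed alpha-tubulin TPM moved to 15899 with posterior means, to 20087 when TPM was scaled over protein-coding genes only, and to 16269 with protein-coding transcripts only, an alternative chosen after seeing the data. Summed beta-tubulin TPM moved to 8158 when scaled over protein-coding genes only. The number of members that differed between pools was 1 with no count minimum (Tuba8, on 12 and 2 counts) and 1 at a 1.5-fold limit (Map7d2). Spike-in scaling shifted all ratios by -0.5537 on the log2 scale, so the members' median turned to -0.520 and 28 of 46 members changed sign; relative to that shift the members stood as before. DESeq2 size factors and posterior mean counts changed the sign of 0 members and library totals of 4. The directions given above for stathmins, tubulins and MAPs between pools therefore hold relative to other genes, and the cause of the spike-in difference was not tested.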

Other observations

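The genes of the gamma-tubulin ring complex, which seeds new microtubules, were found by a symbol search after the values were seen. Tubgcp4 had 60.8 TPM in pool 1 and 49.4 TPM in pool 2, and Tubgcp2 had 55.6 and 58.2 TPM. Tubgcp3 had 36.7 and 40.6 TPM, Tubgcp5 had 23.9 and 23.5 TPM, and Tubgcp6, the largest subunit, had 16.5 and 13.8 TPM. All of them thus lay below Tubg1, whose product they hold.

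Exons of 16 of the 47 members overlap those of other genes, 14 of them on the opposite strand. Besides Tuba4a with Stk16, Tbcb shares 325 exon bases with Polr2i and Camsap3 shares 570 with Xab2. The posterior SD was the same for Tbcb and Polr2i, at 4.33 counts in pool 1 and 4.23 in pool 2. For Camsap3 and Xab2 it was likewise the same, at 3.73 and 3.91 counts. Whether reads crossed between the genes of a pair was not tested. Xab2 had 57.6 TPM in pool 1 and 60.2 TPM in pool 2. The pseudogene Gm11223, which shares stretches with Stmn1, was listed at 65.4 TPM in pool 1 and 107 TPM in pool 2.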
